A study of Sus scrofa with 12 samples.

Results

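The longissimus dorsi, the long muscle beside the spine, was compared between Meishan pigs 60 days after birth and Meishan fetuses at 65 days post coitus. Each of the 2 stages had 3 arrays, so the comparison used 6 of the 12 arrays of the series, chosen by the age in their titles. The other 6 arrays came from muscle at 3 and 120 days after birth, and they were used to estimate the spread and to follow genes over the stages. All pigs were kept under ordinary commercial feeding, carried no genetic modification named in the labels and received no treatment there. Fetuses from the same sow counted as 1 individual, and the labels give neither sex nor time of day for any sample. Muscle was frozen whole and not sorted, and with bulk tissue fewer cells of a type and less RNA per cell cannot be told apart. The labels call the samples biological replicates, without naming the animals or sows behind each.

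At the fetal age used here, muscle fibres are still forming and growing, and their contractile apparatus contains isoforms of myosin, actin and troponin that belong to the embryo. After birth, fibres exchange these for adult isoforms, enlarge their stores of metabolic enzymes and mitochondria, and settle into fast and slow types. The connective tissue around them becomes less active, most muscle precursor cells stop dividing, and imprinted growth genes are turned down. A gene can differ between 60 days and the fetus because it left the fetal level around birth or because it left later, and a gene can also leave that level and come back.

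All 24123 probe sets of the array less 124 controls were considered, and the 16166 (67.4% of 23999) whose values exceeded the 40th percentile of the array they came from on 3 or more arrays were tested. Array medians lay between 49.1 and 52.6 intensity units in all 12 arrays, and their number limits the precision. Across probe sets, which are not independent replicates, arrays of the 60-day muscle correlated with each other at r = 0.911 to 0.942, fetal arrays at 0.905 to 0.95, and arrays of different stages at 0.729 to 0.82. On the second principal component, 60-day replicate 1 and fetal replicate 2 lay apart from the rest of their stages, at -36.8 and -21.5, and their deviations from the stage means correlated at 0.646. Markers of the tissue were high at both ages. CKM, the creatine kinase of muscle, read 9141, 8321 and 8885 at 60 days and 4577, 8162 and 4578 in the fetus, and MYH7, the slow myosin heavy chain, read 4798, 4348 and 3178 at 60 days and 2015, 4227 and 2494 in the fetus. The actin control, which compares its 3-prime with its 5-prime probe set, gave a ratio of 5.1 ± 1.17 at 60 days and 2.45 ± 0.167 in the fetus (SD, n = 3 each; exact two-sided permutation p = 0.1, the smallest possible with 3 against 3, adjusted to 0.112 over 9 such tests). The other 3-prime to 5-prime ratios differed by at most 0.62 on the log2 scale (GAPDH, 0.954 at 60 days and 1.46 in the fetus), and the part of RNA quality in the results below was not tested.

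At 60 days, 6315 of the 16166 probe sets (39.1%) differed from the fetus by limma's moderated test with Benjamini-Hochberg adjustment, called at an adjusted p under 0.05. Of these, 3024 (18.7%) were higher and 3291 (20.4%) lower. A change of 2-fold or more was found in 2574 (15.9%), with 1030 (6.37%) higher and 1544 (9.55%) lower, and 7868 (48.7%) had an unadjusted p under 0.05. The arrays of the 2 ages did not overlap for 7398 (45.8%). A log2 change here is the difference of mean log2(intensity + 21), which understates the change of dim probe sets, and the median over all probe sets was 0.02. The balance of higher and lower calls rests on the scaling of the deposited values. When arrays were instead centred on the hybridization controls spiked into each sample, which read 0.40 higher on the log2 scale at 60 days, the median moved to -0.37, 1003 probe sets were called higher and 6226 lower, and 13.9% of calls were rises against 47.9% before. Counted by gene, with the brightest probe set standing for each, 2185 of 5765 genes (37.9%) were called, of which 1138 (19.7%) were higher and 1047 (18.2%) lower, with a median of 0.05. Every gene-list count below is to be read against these shares of all genes.

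MYH2 was far higher and MYL4, TNNT2 and ACTC1 far lower at 60 days. MYH2, a fast myosin heavy chain of adult fibres, read 8007, 7360 and 7639 at 60 days and 205, 239 and 170.1 in the fetus. The groups were far apart and tight, and the log2 change was 5.10 ± 0.18 (SE, n = 3 each; adjusted p = 2.04e-08), the largest named rise. MYL4, the light chain of embryonic and atrial myosin, moved the opposite way, with 35.2, 32.7 and 53.7 at 60 days and 2830, 3163 and 2032 in the fetus. Every 60-day array lay below every fetal one, with a log2 change of -5.45 ± 0.22 (adjusted p = 4.08e-08), the largest named fall. TNNT2, the cardiac troponin T that embryonic skeletal fibres also use, read 16.8, 41.8 and 20.6 at 60 days and 1160, 786 and 681 in the fetus. Its 60-day values were low, with replicates 1 and 3 below the added constant of 21, so the log2 change of -4.24 ± 0.30 (adjusted p = 1.92e-06) is compressed. ACTC1, the cardiac actin of embryonic muscle, read 764, 896 and 278 at 60 days and 6263, 9443 and 6212 in the fetus, without overlap (log2 change -3.58 ± 0.40, adjusted p = 4.55e-05). Of the 5 measured genes in the list of fetal contractile and junction isoforms 4 fell and none rose, with a median log2 change of -3.58. Among the 4 called, the one that fell least was CHRNA1, a subunit of the acetylcholine receptor. It averaged 44.2 ± 8.04 at 60 days and 101 ± 17.03 in the fetus (SD, n = 3 each; adjusted p = 0.037). That call held in 5 of the 12 fits that left out 1 array, those without any of the 3-day replicates, 120-day replicate 3 or fetal replicate 3, with adjusted p up to 0.11 in the rest.

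**Figure D1:**
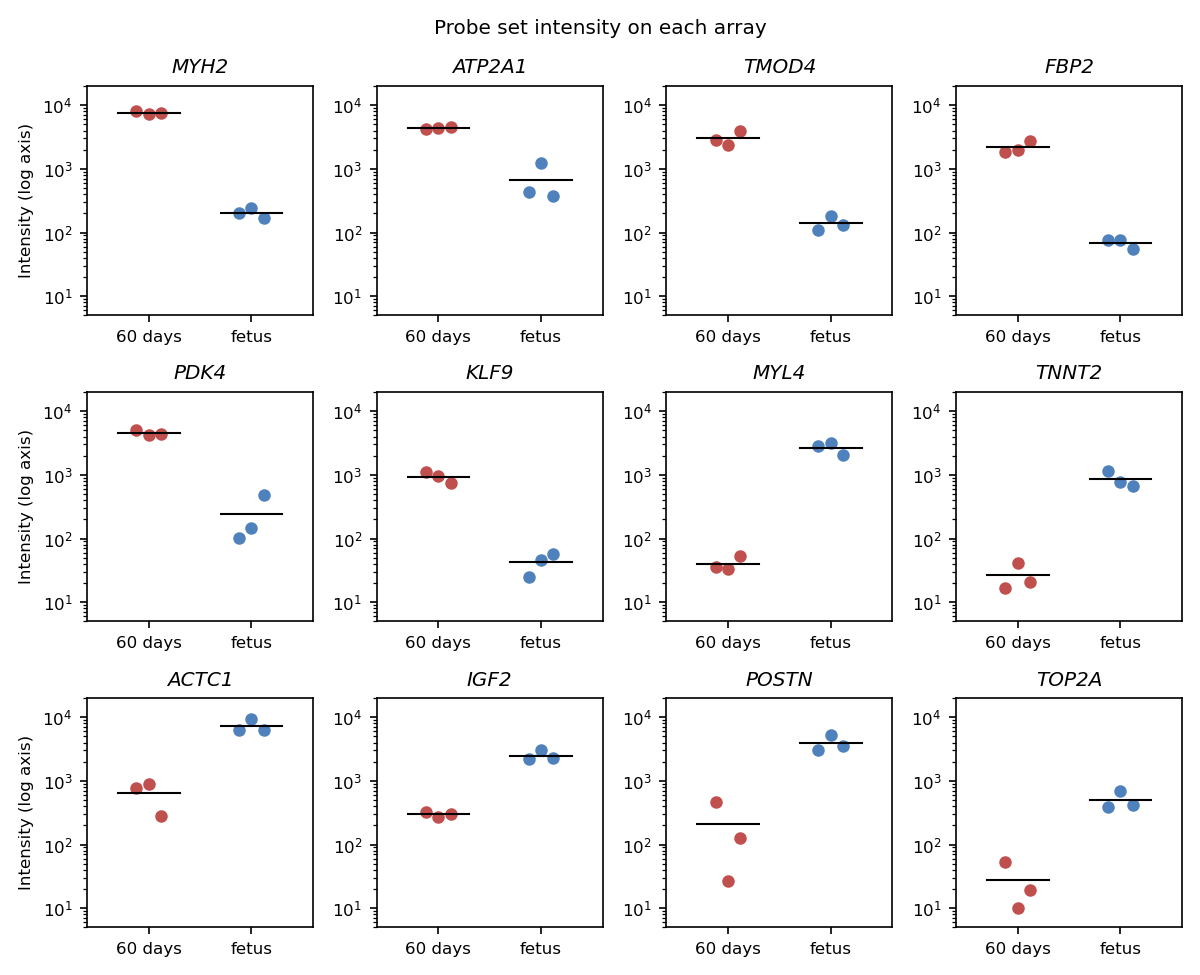
Intensity of 12 probe sets on each of the 3 arrays at 60 days (left, red) and in the fetus (right, blue), on a log axis, with the stage mean as a line. MYH2, ATP2A1, TMOD4, FBP2, PDK4 and KLF9 are higher on all 60-day arrays, and MYL4, TNNT2, ACTC1, IGF2, POSTN and TOP2A are lower on all of them.

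Fast-fibre genes were higher by smaller amounts than MYH2. Of 9 measured, 6 rose and none fell, with a median of 0.56. ATP2A1, the calcium pump of fast fibres, read 4218, 4390 and 4542 at 60 days and 430.4, 1229 and 375 in the fetus, where replicate 2 stood above the other two. Its log2 change was 2.86 ± 0.33 (adjusted p = 5.47e-05), and MYOZ1, a Z-disc protein of fast fibres, had one of 1.56 ± 0.14 (adjusted p = 8.68e-06). The count was 3 of 9 when arrays were centred on the hybridization controls and also when only the 6 compared arrays were fitted, and 9 of 9 with both arrays that lay apart left out. Slow-fibre genes had 1 higher and 2 lower of 10, beside 19.7% of all genes higher and 18.2% lower. Their median of 0.34 turned to -0.05 under the hybridization-control centring. The higher count was 2 without fetal replicate 1 or 60-day replicate 3, 3 without fetal replicate 2 or 60-day replicate 1, and 5 without both arrays that lay apart, and the median was 0.21 without 60-day replicate 2. CASQ2, the calcium store protein of slow and cardiac fibres, read 201, 69.2 and 55.7 at 60 days and 602, 1104 and 486 in the fetus (log2 change -2.62 ± 0.40, adjusted p = 0.000363). TPM3, a slow tropomyosin, had a log2 change of -1.43 ± 0.29, and TNNT1, slow troponin T, was the member that rose, by 0.48 ± 0.14 (adjusted p = 0.0158, or 0.0529 without 60-day replicate 2). For MYH7 the change was 0.54 ± 0.25 with a 95% interval from -0.0045 to 1.09 (adjusted p = 0.105), and it passed the test without fetal replicate 2 (0.85, adjusted p = 0.00962).

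Among 17 structural genes of the sarcomere, 8 rose and none fell, with a median of 0.64, beside 19.7% of all genes higher and 18.2% lower. TMOD4, a tropomodulin that caps thin filaments, read 2859, 2334 and 3961 at 60 days and 108, 179.9 and 134 in the fetus (log2 change 4.24 ± 0.23, adjusted p = 3.8e-07). ANKRD1, a titin-binding protein that responds to stretch, read 1947, 5431 and 5389 at 60 days and 143, 194 and 717 in the fetus. The groups did not overlap, but 60-day replicate 1 and fetal replicate 3 lay nearest to each other, and the SE was large (3.71 ± 0.62, adjusted p = 0.000643). XIRP1, an actin-binding protein of muscle attachment sites, spread as widely at 60 days, with 182, 1021 and 1718, against 86.7, 97.04 and 108 in the fetus (log2 change 2.60 ± 0.65). All 7 measured genes of the calcium release unit were called, 6 higher and 1 lower, and each fit that left out 1 array also gave 6 and 1. RYR1, the calcium release channel of adult skeletal muscle, read 1391, 1577 and 2077 at 60 days and 477, 668 and 428 in the fetus (log2 change 1.65 ± 0.24, adjusted p = 0.000276). RYR3, the isoform that developing muscle also expresses, was the one that fell, to 24.6, 19.9 and 34.4 at 60 days against 59.2, 161 and 68.04 in the fetus (log2 change -1.22 ± 0.27, adjusted p = 0.00354). CAMK2G, a calcium-dependent kinase, had a log2 change of 1.47 ± 0.27 and HRC, a calcium-binding protein of the sarcoplasmic reticulum, one of 1.33 ± 0.29.

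**Figure D2:**
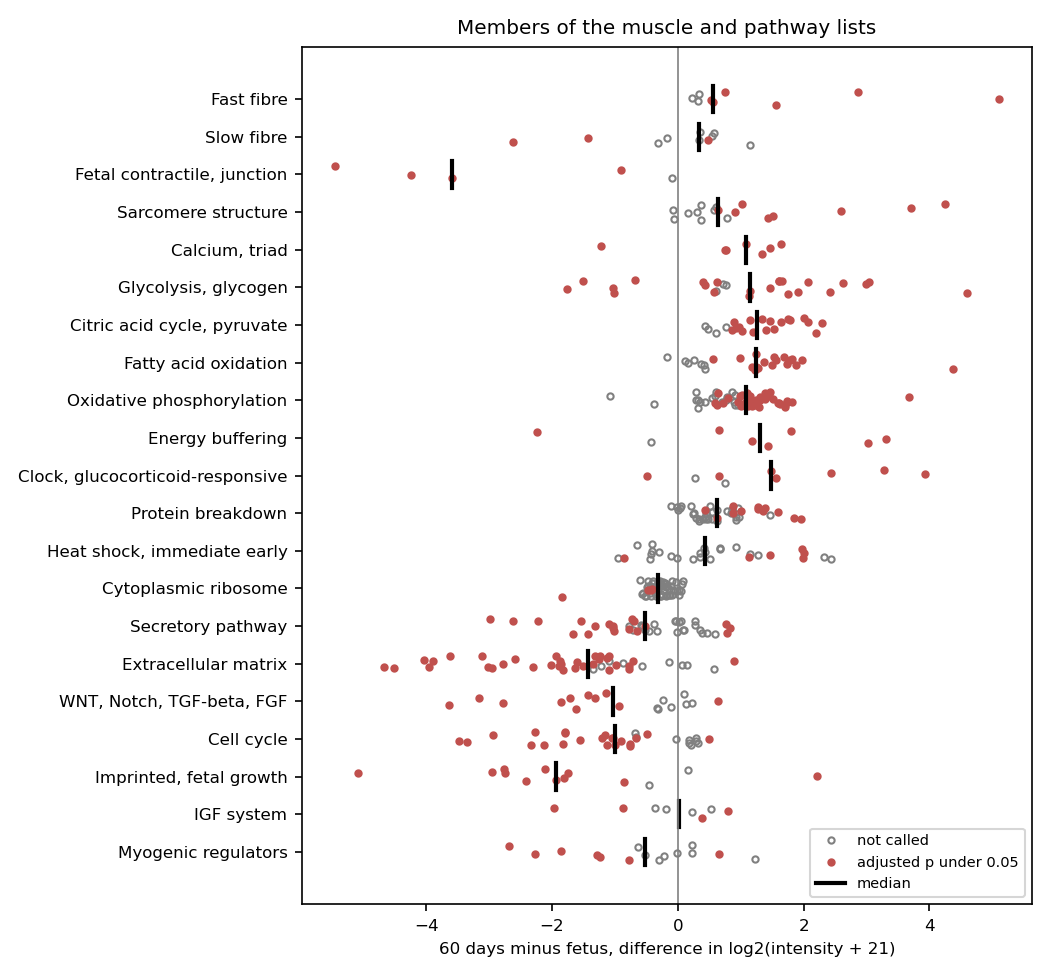
Log2 change between 60 days and the fetus (horizontal axis, difference of mean log2(intensity + 21)) for every measured member of 21 gene lists. Filled points passed an adjusted p under 0.05, open points did not, and black bars are list medians, from 1.49 for the clock and glucocorticoid-responsive genes to -3.58 for fetal contractile isoforms.

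Genes of energy metabolism were mostly higher at 60 days. FBP2, the fructose bisphosphatase of muscle, read 1865, 1955 and 2769 at 60 days and 77.6, 77.2 and 54.2 in the fetus, a log2 change of 4.60 ± 0.45 (adjusted p = 1.72e-05). PYGM, the phosphorylase that breaks down muscle glycogen, read 6707, 5317 and 6568 at 60 days and 688, 959.8 and 592 in the fetus (3.04 ± 0.25, adjusted p = 4.55e-06), and its probe set is of a kind that can match related transcripts. Of 26 genes of glycolysis and glycogen 18 rose and 5 fell, with a median of 1.15. PFKM and BPGM, the muscle phosphofructokinase and the enzyme that makes 2,3-bisphosphoglycerate, rose by 2.99 ± 0.32 and 2.62 ± 0.48. Among the 5 that fell, HK1, a widely expressed hexokinase, read 187, 165 and 208 at 60 days and 568, 586 and 933 in the fetus (log2 change -1.76 ± 0.24, adjusted p = 0.000172). SLC2A1, a glucose transporter of many cell types, changed by -1.51 ± 0.29, ENO1, the widely expressed enolase, by -1.02 ± 0.28, and PFKL, the liver phosphofructokinase, by -1.01 ± 0.20. LDHB, the heart-type lactate dehydrogenase, changed by -0.68 ± 0.24 (adjusted p = 0.0411). The LDHB call held in 3 of the 12 fits that left out 1 array, those without 60-day replicate 2, 3-day replicate 3 or 120-day replicate 1, with adjusted p up to 0.158 in the rest.

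No measured gene of the citric acid cycle or of fatty acid oxidation was called lower at 60 days. In the citric acid cycle list 18 of 22 rose and none fell (median 1.27), and in fatty acid oxidation 19 of 26 rose and none fell (median 1.25). GOT2, the mitochondrial aspartate aminotransferase, read 2389, 1865 and 2038 at 60 days and 364, 618 and 298 in the fetus (log2 change 2.30 ± 0.26, adjusted p = 4.22e-05). IDH3A and SUCLA2, subunits of isocitrate dehydrogenase and succinyl-CoA ligase, rose by 2.01 ± 0.30 and 2.19 ± 0.31. PDK4, the kinase that turns pyruvate dehydrogenase off and spares glucose, read 4997, 4228 and 4388 at 60 days and 101, 145 and 490.0 in the fetus. Fetal replicate 3 was the highest of the fetal arrays, and all 60-day arrays lay above it. The log2 change was 4.38 ± 0.46 (adjusted p = 2.91e-05). ACSL1, which activates long-chain fatty acids, changed by 1.97 ± 0.25, and ACADS, the short-chain acyl-CoA dehydrogenase, by 1.81 ± 0.20. PPARGC1A, a coactivator of mitochondrial genes, read 294, 266 and 1257 at 60 days and 63.2, 85.5 and 240.3 in the fetus. Its value on 60-day replicate 3 was far above the other two, and its call (1.88 ± 0.61, adjusted p = 0.0285) was lost without 60-day replicate 3, fetal replicate 1 or fetal replicate 2 (adjusted p = 0.115, 0.103 and 0.086).

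Oxidative phosphorylation had 38 of 59 measured genes higher and none lower, with a median of 1.08. COX7A1, a cytochrome oxidase subunit of heart and muscle, read 1330, 3253 and 3080 at 60 days and 197, 68.9 and 310.4 in the fetus, with 60-day replicate 1 lowest of its group (log2 change 3.68 ± 0.42, adjusted p = 5.14e-05). UQCRB of complex III changed by 1.82 ± 0.30, and NDUFA5 and NDUFS7 of complex I by 1.74 ± 0.21 and 1.73 ± 0.31. The summed intensity of the list was 77130, 119700 and 131600 on the 60-day arrays and 63380, 43980 and 57550 on the fetal arrays. In that sum the lower 60-day value belonged to replicate 1 and the lower fetal value to replicate 2, the arrays that lay apart. The count was 51 without 60-day replicate 1, 24 without 60-day replicate 3, and 24 under the hybridization-control centring. CKMT2, the mitochondrial creatine kinase, read 2703, 1481 and 2831 at 60 days and 266, 168 and 198 in the fetus (3.31 ± 0.35, adjusted p = 2.81e-05). Of the 8 measured genes of energy buffering 6 rose, among them ADSSL1 and AMPD1 of the purine nucleotide cycle (3.02 ± 0.40 and 1.80 ± 0.41). CKB, the brain-type creatine kinase, fell, and read 50.5, 61.3 and 42.04 at 60 days and 349, 207 and 447 in the fetus (-2.24 ± 0.23, adjusted p = 2.06e-05).

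Genes that follow the daily clock or glucocorticoids included large rises. KLF9, a transcription factor induced by glucocorticoids, read 1103, 958 and 757 at 60 days and 24.7, 46.9 and 57.2 in the fetus (log2 change 3.93 ± 0.25, adjusted p = 1.01e-06). FKBP5, a co-chaperone of the glucocorticoid receptor, read 1266, 1485 and 890.4 at 60 days and 89.8, 62.6 and 191 in the fetus (3.27 ± 0.41, adjusted p = 8.85e-05). Both had every 60-day array above every fetal one. RORA, a nuclear receptor of the clock, changed by 2.43 ± 0.35 and TSC22D3, a glucocorticoid target, by 1.56 ± 0.36. DBP, a clock output factor, fell by a small amount, with 21.5, 30.9 and 36.1 at 60 days and 51.4, 52.9 and 43.5 in the fetus (-0.49 ± 0.13, adjusted p = 0.012). In all, 6 of 9 measured genes of this list rose and 1 fell, with a median of 1.49. Other large rises fell outside the lists. PPP1R1A, an inhibitor of protein phosphatase 1, read 2154, 2728 and 4478 at 60 days and 299, 141 and 223 in the fetus (3.68 ± 0.31). FMO1, a flavin-containing monooxygenase, read 391, 455 and 365 at 60 days and 7.83, 7.93 and 8.55 in the fetus, where all values lay below the added constant (3.86 ± 0.18, adjusted p = 1.1e-07). GPX2, a glutathione peroxidase, and C4BPA, a complement regulator, had low fetal values and a wide spread at 60 days, with 154, 550.1 and 1752 and 279, 469 and 961 (3.94 ± 0.71 and 3.74 ± 0.57), and SMPDL3A, a phosphodiesterase related to sphingomyelinase, changed by 3.39 ± 0.59.

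**Figure D3:**
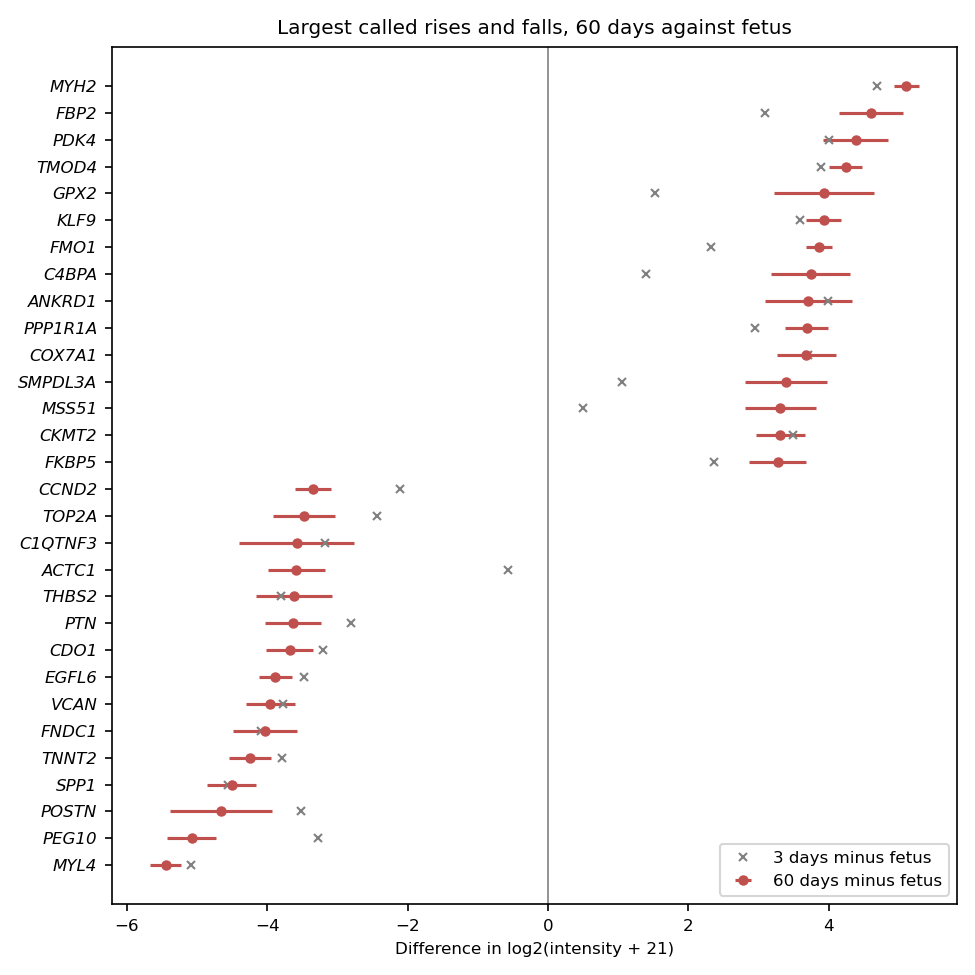
The 15 largest called rises and 15 largest called falls among named genes whose arrays do not overlap, as log2 change between 60 days and the fetus (red points, with SE), from MYH2 at 5.10 to MYL4 at -5.45. Grey crosses give the change between 3 days and the fetus, which shares the fetal arrays, and for MSS51 and ACTC1 this change was 0.50 and -0.57.

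Genes of the extracellular matrix were mostly lower at 60 days. Of 42 measured genes 32 fell and 1 rose, with a median of -1.43. POSTN, periostin of growing connective tissue, read 469.5, 27.1 and 128 at 60 days and 3006, 5198 and 3591 in the fetus, with 60-day replicate 1 the highest of its group (log2 change -4.66 ± 0.73, adjusted p = 0.000395). The same 60-day array was also highest for FNDC1, with 270.1, 75.6 and 64.8 at 60 days and 1683, 2918 and 2061 in the fetus, and for VCAN, the proteoglycan versican, with 108, 25.1 and 46.2 at 60 days and 1184, 1543 and 779 in the fetus. Neither overlapped between the ages (-4.03 ± 0.46 and -3.96 ± 0.35). SPP1, osteopontin, read 39.5, 51.2 and 63.1 at 60 days and 1068, 1405 and 2760 in the fetus (-4.51 ± 0.35, adjusted p = 3.16e-06). THBS2, a thrombospondin, changed by -3.62 ± 0.54, and EGFL6, a matrix protein with EGF repeats, by -3.89 ± 0.24. TIMP3, an inhibitor of matrix proteases, was the member that rose (108, 86.04 and 80.8 at 60 days, 30.2, 38.1 and 51.3 in the fetus, 0.89 ± 0.17). The COL3A1 probe set was dim, at 108, 80.9 and 62.7 at 60 days and 49.4, 41.4 and 55.1 in the fetus, and did not pass the test (0.57 ± 0.23, adjusted p = 0.0632), but passed without 60-day replicate 3 or 120-day replicate 1 (adjusted p = 0.0423 and 0.0401).

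Genes of the secretory pathway, through which matrix proteins are folded and exported, had 16 of 41 lower and 3 higher, with a median of -0.52. Over all genes, 18.2% were lower and 19.7% higher. The members with the largest changes are folding helpers and receptors of the endoplasmic reticulum. FKBP10, a collagen chaperone, read 235, 54.4 and 93.8 at 60 days and 830.0, 1525 and 823 in the fetus (-2.99 ± 0.40, adjusted p = 0.000151). CKAP4, FKBP9 and KDELR3 changed by -2.63 ± 0.29, -2.23 ± 0.31 and -1.66 ± 0.33. SRP9, SRP14 and SDF2L1 were the members that rose, the first of them by 0.83 ± 0.19. SRP14 lost its call without 60-day replicate 2, 60-day replicate 3 or fetal replicate 2 (adjusted p = 0.089, 0.0589 and 0.0813). SDF2L1 kept its call in 4 of the 12 fits that left out 1 array, those without 60-day replicate 1, 60-day replicate 3, 3-day replicate 3 or fetal replicate 3, with adjusted p up to 0.139 in the rest and a change of 0.36 in place of 0.76 without 60-day replicate 2. The count of lower genes was 8 when only the 6 compared arrays were fitted and 24 under the hybridization-control centring.

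The list of imprinted genes and other fetal growth genes had 13 measured members, 10 of which fell while 1 rose, with a median of -1.94. PEG10, a gene derived from a retroelement and expressed from the paternal copy, read 43.9, 58.2 and 161 at 60 days and 3251, 4003 and 2702 in the fetus (log2 change -5.08 ± 0.35, adjusted p = 1.8e-06). IGF2, the fetal insulin-like growth factor, read 322, 272 and 305 at 60 days and 2191, 3039 and 2252 in the fetus, with a tight 60-day group (-2.96 ± 0.29, adjusted p = 1.9e-05). IGF2 had 10 further probe sets, of which 7 were called lower and 1 higher. MEG3, a maternally expressed non-coding RNA, and PLAGL1, an imprinted zinc finger factor, changed by -2.76 ± 0.24 and -2.74 ± 0.20. GRB10, an adaptor that restrains insulin and IGF receptors, was the one that rose, with 935, 1377 and 589 at 60 days and 147, 146 and 270.0 in the fetus (2.21 ± 0.47, adjusted p = 0.00278). In the IGF system list 2 of 8 were higher and 2 lower, beside 19.7% of all genes higher and 18.2% lower. IGFBP2, an IGF-binding protein, fell (49.9, 84.4 and 62.8 at 60 days, 467, 222 and 294 in the fetus, -1.97 ± 0.25), and IRS1, the docking protein of both receptors, rose (0.81 ± 0.20). IGF1 differed by 0.39 ± 0.14 (adjusted p = 0.0396), but this call held in 4 of the 12 fits that left out 1 array, those without 60-day replicate 2, 3-day replicate 1, 3-day replicate 3 or 120-day replicate 3, a pair of further probe sets were called once higher and once lower, and its sign turned under the hybridization-control centring. IGFBP6 changed by -0.88 ± 0.30, and lost its call without 60-day replicate 2, fetal replicate 1 or fetal replicate 3 (adjusted p = 0.129, 0.108 and 0.0962).

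Cell cycle genes were lower in 21 of 31 cases and higher in 1, with a median of -1. TOP2A, the topoisomerase of dividing cells, read 53.3, 9.92 and 19.5 at 60 days and 386, 682 and 424 in the fetus (-3.47 ± 0.44, adjusted p = 0.000103), and CCND2, a cyclin that starts the cycle, read 76.8, 82.2 and 91.8 at 60 days and 1404, 1003 and 801 in the fetus (-3.35 ± 0.26, adjusted p = 3.07e-06). CCNB1 and UBE2C, which act in mitosis, changed by -2.33 ± 0.18 and -2.93 ± 0.28. AURKB, a mitotic kinase, was the member that rose (0.50 ± 0.16, adjusted p = 0.0271), and lost that call without 60-day replicate 1, 60-day replicate 3, fetal replicate 1 or fetal replicate 2 (adjusted p = 0.0653, 0.0754, 0.0639 and 0.0864). Of 18 genes of the WNT, Notch, TGF-beta and FGF pathways 10 fell and 1 rose (median -1.03). For both lists, the shares over all genes were 18.2% lower and 19.7% higher. PTN and MDK, a pair of related growth factors, read 33.9, 55.9 and 11.6 and 36.9, 95.03 and 123 at 60 days, against 494, 674 and 708 and 895, 438 and 1630 in the fetus. Neither gene's groups overlapped (-3.63 ± 0.40 and -3.16 ± 0.44), and the MDK probe set can match related transcripts. TGFB3 changed by -1.86 ± 0.18 and DKK3, a secreted protein of the Dickkopf family, by -2.77 ± 0.37, while FGF2 rose (0.64 ± 0.13).

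Of 15 regulators of muscle formation 6 were lower, 1 was higher and 8 were not called, with a median of -0.51. Over all genes, 18.2% were lower and 19.7% higher. MYF5, a factor that commits cells to muscle, read 36.9, 32.8 and 36.2 at 60 days and 373, 184 and 572 in the fetus (-2.69 ± 0.34, adjusted p = 9.09e-05). MYOD1, which acts with it, read 83.04, 55.6 and 164 at 60 days and 348, 282 and 170.5 in the fetus, and the groups came close at 60-day replicate 3 and fetal replicate 3 (-1.29 ± 0.34, adjusted p = 0.0107). MSTN, myostatin, the brake on muscle growth, read 257, 26.1 and 159.5 at 60 days and 538, 1136 and 385 in the fetus (-2.26 ± 0.59, adjusted p = 0.00979), and FST, follistatin, which binds myostatin, fell too (-1.86 ± 0.32). MYF6, the factor of mature fibres, read 615, 395 and 1012 at 60 days and 266, 146 and 424 in the fetus and was not called (1.23 ± 0.51, adjusted p = 0.072), but passed without 60-day replicate 2, 3-day replicate 3 or fetal replicate 3 (adjusted p = 0.0463, 0.0331 and 0.0391). TEAD1, a transcription factor of the Hippo pathway, was the member that rose (0.65 ± 0.17). Its call was lost under the hybridization-control centring (0.26, adjusted p = 0.349) and when only the 6 compared arrays were fitted (adjusted p = 0.0631).

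Protein breakdown genes were higher in 12 of 41 cases and lower in none, a share of higher genes to be read against 19.7% of all genes, with a median of 0.62. FOXO1, a transcription factor of the breakdown programme, read 269.8, 456 and 411 at 60 days and 62.1, 71.1 and 111 in the fetus (1.96 ± 0.26, adjusted p = 0.000123), and CAPN3, the calpain of muscle, changed by 1.84 ± 0.20. PSMD11, a proteasome subunit, read 1421, 3153 and 1419 at 60 days and 712, 650.2 and 721 in the fetus, so that 60-day replicate 2 stood above its group. That array also had the highest sum of the list, 76640, against 35080 and 42860 for 60-day replicates 1 and 3 and 29370 to 35940 in the fetus. Without 60-day replicate 2 the median was 0.25 and the count 8. The count was 19 without 60-day replicate 1, 8 when only the 6 compared arrays were fitted, and 6 under the hybridization-control centring. FBXO32, a ubiquitin ligase that rises in wasting muscle, varied so much, with 176, 2488 and 625 at 60 days and 184, 68.2 and 815 in the fetus, that its 95% interval ran from -1.42 to 4.34. Of 28 heat shock and immediate early genes 5 rose and 1 fell (median 0.43), beside 19.7% of all genes higher and 18.2% lower, so the share that rose was not above that of all genes, and 11 rose without 60-day replicate 1. The called members with the largest rises are given as single genes, and the largest rise of the list, 2.44, did not pass the test. BAG3, HSPB8 and HSPB7, partners in chaperone-assisted clearance or small heat shock proteins of muscle, changed by 2.0 ± 0.27, 1.97 ± 0.28 and 1.99 ± 0.37. HSPB2 was the lower member (-0.86 ± 0.32, adjusted p = 0.0477), a call that held in 2 of the 12 fits with 1 array left out, those without 60-day replicate 2 or 3, with adjusted p up to 0.125 in the rest. The HSPB2 change was -0.40 without 60-day replicate 1.

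Cytoplasmic ribosomal protein genes were mostly not called, with 4 of 57 lower, none higher and a median of -0.31, beside 18.2% of all genes lower. RPL3, which has a muscle-specific paralogue, stood apart from the rest, with 895, 1039 and 1055 at 60 days and 3893, 3877 and 3134 in the fetus (log2 change -1.84 ± 0.22, adjusted p = 6.52e-05). The others called were RPL9, RPS18 and RPSA, at -0.42 ± 0.15, -0.47 ± 0.17 and -0.40 ± 0.15. RPS18 and RPSA kept their calls in 1 of the 12 fits that left out 1 array, the one without 60-day replicate 2, and RPL9 in 3, those without 60-day replicate 2, 60-day replicate 3 or 3-day replicate 3. Without 60-day replicate 1 the list's median was -0.07, the changes of RPL9 and RPS18 were -0.25 and -0.25, and 1 gene was higher and 1 lower. The lower count was 1 to 3 in 11 of the 12 fits that left out 1 array and 18 in the one without 60-day replicate 2, where the median was -0.51, and it was 20 after quantile normalization and 46 under the hybridization-control centring. The list's sum was 144800 on 60-day replicate 1, against 258700 and 233100 on the other 60-day arrays and 240200 to 263100 in the fetus.

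Markers of other cell types were followed because whole muscle contains them, and none of their measured members was at 0 on any array. Lipid synthesis and adipocyte genes were higher in 11 of 18 cases and lower in 2 (median 1.19, or 0.74 without 60-day replicate 1), and their sum was 6618 to 7586 at 60 days and 1960 to 2648 in the fetus. GPD1, which links glycolysis to lipid synthesis, read 1938, 1462 and 2341 at 60 days and 185, 336 and 136 in the fetus (3.07 ± 0.38, adjusted p = 7.83e-05), and CFD, the adipocyte protein adipsin, read 219.7, 515 and 728 at 60 days and 61.2, 39.6 and 96.5 in the fetus (2.46 ± 0.48). Muscle fibres also express GPD1, LPIN1 and PNPLA2, the last 2 of which changed by 2.39 ± 0.38 and 1.72 ± 0.43. ELOVL6 and FASN, enzymes of fatty acid synthesis and elongation, fell (-1.06 ± 0.28 and -0.88 ± 0.24), where FASN lost its call without fetal replicate 2 (adjusted p = 0.0506) and another probe set of the gene was called higher. Fibroblast markers were lower in 4 of 7 cases and higher in none, beside 18.2% of all genes lower and 19.7% higher. Their sums were 1399 to 1655 at 60 days and 3013 to 4246 in the fetus. DPT, dermatopontin, read 160.1, 93.2 and 124 at 60 days and 1170, 1550 and 938 in the fetus (-3.07 ± 0.27, adjusted p = 9.11e-06), and DPP4, MFAP5 and CD34 changed by -1.71 ± 0.26, -1.13 ± 0.24 and -0.74 ± 0.15. These markers moved with the matrix and secretory lists, and their part in those results was not tested.

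Other marker lists overlapped in their sums between the ages, and their counts are to be read against 19.7% of all genes higher and 18.2% lower. Endothelial genes gave 1 higher and 2 lower of 16, with sums of 2751 to 3579 at 60 days and 2834 to 4031 in the fetus. TEK, an endothelial receptor, was the higher one (0.93 ± 0.28), and its call was lost without 60-day replicate 1, 60-day replicate 3, fetal replicate 1 or fetal replicate 3 (adjusted p = 0.0627, 0.0616, 0.0567 and 0.0733). The lower ones were ICAM2, an adhesion molecule, and CLDN5, a tight junction protein (-0.77 ± 0.22 and -0.75 ± 0.27). ICAM2 lost its call without 60-day replicate 1 or fetal replicate 3 (adjusted p = 0.0584 and 0.0559). CLDN5 kept its call in 5 of the 12 fits that left out 1 array, those without 60-day replicate 2, 3-day replicate 1, 3-day replicate 3, 120-day replicate 2 or 120-day replicate 3, and no endothelial gene was called in either direction without 60-day replicate 1. Of 8 smooth muscle and pericyte genes 3 fell and 1 rose, with sums of 4104 to 5443 at 60 days and 3052 to 5555 in the fetus. RGS5, a pericyte gene, rose (1753, 1091 and 1696 at 60 days, 289, 581 and 249.5 in the fetus, 2.02 ± 0.28), while MCAM, ACTG2 and PDGFRB changed by -1.44 ± 0.19, -0.96 ± 0.19 and -0.90 ± 0.23, and the other probe set of PDGFRB was called higher. Nerve markers gave 0 higher and 1 lower of 5 (545.5 to 728.5 at 60 days, 727.6 to 1061 in the fetus). The lower one was MBP, a myelin protein (-0.58 ± 0.21, adjusted p = 0.0487), whose call held in 2 of the 12 fits that left out 1 array, those without 60-day replicate 1 or fetal replicate 1. Cartilage and bone markers gave 1 each way of 6, SP7 higher and COMP lower (337.4 to 518.7 at 60 days, 417 to 538.9 in the fetus). Among 4 erythroid genes AHSP, the chaperone of alpha globin, fell, with 14.8, 24.6 and 18.99 at 60 days and 640.5, 43.2 and 314 in the fetus (-2.59 ± 0.62, adjusted p = 0.00574), and the sums were 646.4 to 1002 at 60 days and 965.3 to 1647 in the fetus.

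Fetal replicate 3 differed from the other fetal arrays in immune and interferon genes. The sum of 14 immune markers was 1181, 1948 and 2102 at 60 days and 932.4, 802.2 and 8502 in the fetus. The sum of 23 interferon and antigen presentation genes was 6871, 10300 and 12470 at 60 days and 5305, 4885 and 29000 in the fetus. In both, fetal replicate 3 was above every 60-day array and the other fetal arrays were below all of them. With all arrays, 2 of the 14 immune genes and 4 of the 23 interferon genes were higher at 60 days and none was lower. Neither share that rose was above the 19.7% of all genes called higher. Without fetal replicate 3 the counts were 4 and 16, and the interferon median was 1.32 in place of 0.39. The immune median was 0.02 with all arrays and 0.41 without fetal replicate 3, and without fetal replicate 1 or 2 it was -0.34 and -0.37, and the interferon median -0.11 and -0.10. JCHAIN, a chain of secreted antibodies, read 122, 134 and 94.4 at 60 days and 25.4, 35.4 and 50.4 in the fetus (1.26 ± 0.20, adjusted p = 0.000498). ITGAM, an integrin of myeloid cells, was the other immune gene called (0.37 ± 0.12, adjusted p = 0.0336), and IFIT2, an interferon-induced gene, changed by 0.92 ± 0.29. ITGAM lost its call without 60-day replicate 1, 60-day replicate 2, fetal replicate 1 or fetal replicate 2 (adjusted p = 0.0707, 0.111, 0.0864 and 0.089), and IFIT2 without 60-day replicate 2, 60-day replicate 3, fetal replicate 1 or fetal replicate 2 (adjusted p = 0.0599, 0.0803, 0.1 and 0.0964). RSAD2 and MX2, antiviral genes induced by interferon, changed by 1.83 ± 0.48 and 0.62 ± 0.14. OAS1, another such gene, read 199.6, 269.7 and 292 at 60 days and 42.1, 27.6 and 185 in the fetus, and its call (1.66 ± 0.50, adjusted p = 0.0206) was lost without 60-day replicate 2, 60-day replicate 3, fetal replicate 1 or fetal replicate 2 (adjusted p = 0.0512, 0.0619, 0.0753 and 0.0901).

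**Figure D4:**
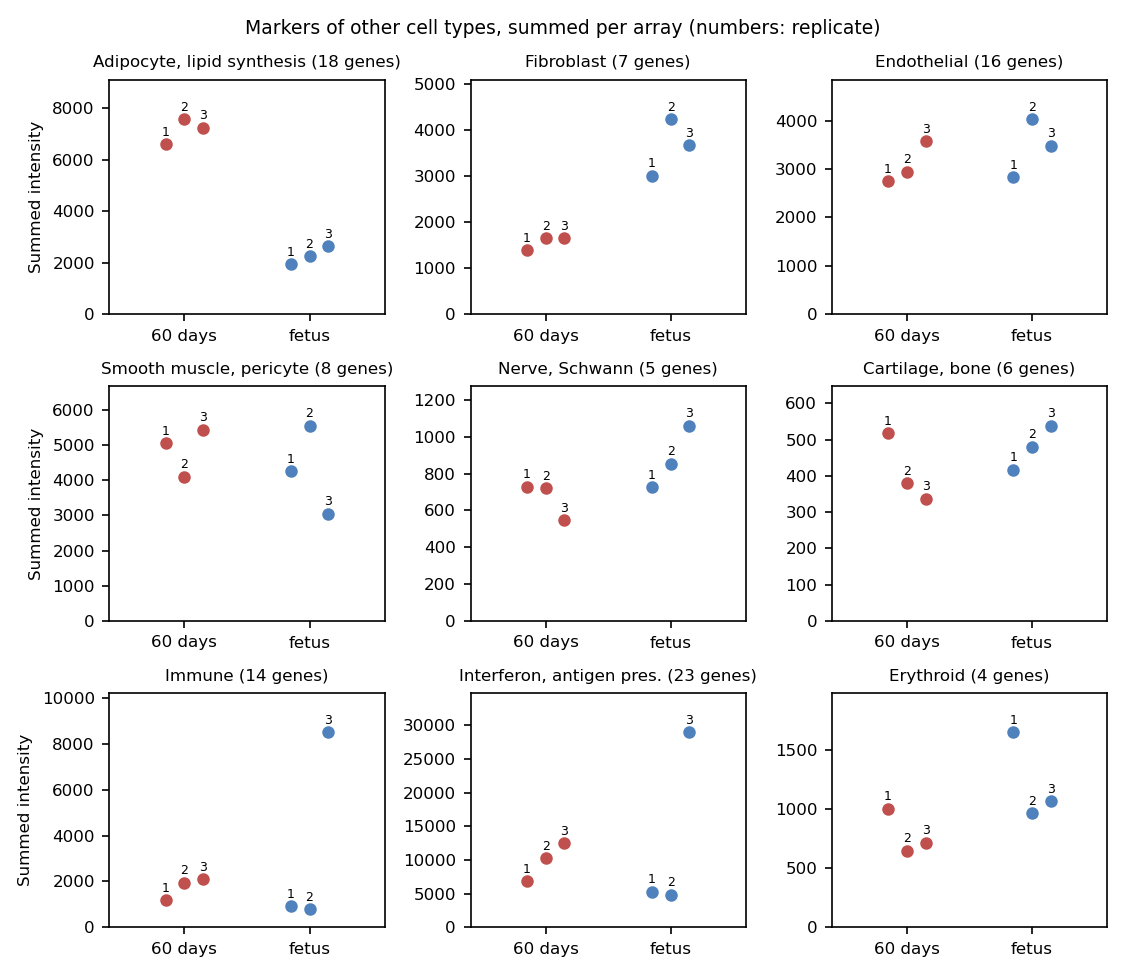
Summed intensity of the measured markers of 9 other cell types on each array at 60 days (left, red) and in the fetus (right, blue), with the replicate number above each point and axes that start at 0. Fetal replicate 3 reaches 8502 for immune genes and 29000 for interferon genes, above every other array shown in those panels.

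Over 3 stages, a return to the fetal level can be described for probe sets that changed from the fetus to 3 days and changed back between 3 and 60 days. These comparisons share the fetal, 3-day and 60-day arrays, so their overlap is not a test. At 3 days 6945 probe sets (43%) differed from the fetus, 3286 (20.3%) higher and 3659 (22.6%) lower, whereas at 60 days 247 (1.53%) differed from 3 days, of which 127 (0.786%) were higher and 120 (0.742%) lower. Of the 106 probe sets that reversed direction, 81 rose and then fell, and 25 fell and then rose. A probe set was taken as back at the fetal level when 60 days did not differ from the fetus by the test and the 95% interval of that difference lay within 2-fold, because a missed threshold alone does not show a return. By that rule 68 were back, 21 were short of the fetal level (still different, on the side of the 3-day change), 6 had passed it, and 11 were undetermined because the interval was too wide. The genes among these numbered 24 back, 8 short, 2 past and 5 undetermined. The counts rest on few arrays. Back at the fetal level were 20 to 45 probe sets when 3-day replicate 1 or 2, 60-day replicate 1, or 120-day replicate 1 or 2 was left out.

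ZNF385D, a zinc finger protein, had the largest excursion among named genes that came back. It read 78.5, 52.6 and 87.4 in the fetus, 543, 442 and 451 at 3 days and 74.3, 59.8 and 82.8 at 60 days. The 60-day difference from the fetus was 0.0033 on the log2 scale with a 95% interval from -0.43 to 0.44, and at 120 days it was lower than in the fetus (-0.63, adjusted p = 0.0216). TUFM, the elongation factor of mitochondrial translation, read 379, 354 and 353 in the fetus, 794, 984 and 867 at 3 days and 394, 381 and 387 at 60 days, with a 60-day interval from -0.28 to 0.46. BCS1L, which assembles complex III, read 80.98, 84.3 and 80.8 in the fetus, 194, 222 and 193 at 3 days and 78.1, 96.6 and 103 at 60 days, with an interval from -0.17 to 0.44. These 3 genes were back in every one of the 12 fits that left out 1 array, and so was MIPEP, a mitochondrial processing peptidase named here after its values were seen. MIPEP read 84.6, 90.8 and 88.00 in the fetus, 147, 191 and 172 at 3 days and 63.8, 69.2 and 69.8 at 60 days, with an interval from -0.56 to -0.029 that lay within 2-fold but below 0.

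Further named genes that rose at 3 days and came back were MRPL2 and MRPS12, proteins of the mitochondrial ribosome, MCUR1, a regulator of mitochondrial calcium uptake, PDSS1, which makes the side chain of coenzyme Q, and METTL1, a methyltransferase of transfer RNA. MRPL2 sat just inside the limit, with an interval up to 0.98, and ACOT6 just outside it, up to 1.32. Genes that fell at 3 days and came back included NR3C1, the glucocorticoid receptor. NR3C1 read 280.4, 499.7 and 434 in the fetus, 91.2, 132 and 138 at 3 days and 351, 297 and 336 at 60 days, with an interval from -0.80 to 0.30. PDZRN3, a ubiquitin ligase of the neuromuscular junction, read 488, 707 and 762 in the fetus, 218, 254 and 130.3 at 3 days and 655, 549 and 510.1 at 60 days. RBL2, a relative of the retinoblastoma protein, ZNF277 and ANKRD28 were the others of this kind. Unlike the 4 genes above, these 10 left the class in 2 to 11 of the 12 fits with 1 array left out, PDZRN3 without 60-day replicate 1 or 3-day replicate 1, and ANKRD28 in all but the fit without fetal replicate 1. For each of the 10, the arrays concerned included at least one of 60-day replicate 1, 3-day replicate 1 and 3-day replicate 2.

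Several genes stopped short. HOMER2, a scaffold protein that binds calcium channels, read 58.1, 90.2 and 62.3 in the fetus, 926, 557 and 659 at 3 days and 242, 343 and 316 at 60 days. CPT1B, the gate of fatty acid entry into muscle mitochondria, read 93.3, 68.7 and 86.95 in the fetus, 646, 739 and 700.1 at 3 days and 166, 380.3 and 178 at 60 days. Both were between the fetal and the 3-day levels at 60 days (1.82 ± 0.24 and 1.25 ± 0.26 against the fetus). At 120 days CPT1B did not pass the test against the fetus (0.58, adjusted p = 0.0865) while HOMER2 did (2.08). The missed threshold does not show a return of CPT1B, and neither gene was called between 120 and 60 days. ECI1, an enzyme of unsaturated fatty acid oxidation, PPIF, the cyclophilin of the mitochondrial matrix, and TP53INP2, an autophagy protein, lay 1.5 ± 0.23, 1.10 ± 0.28 and 1.59 ± 0.37 above the fetus at 60 days. AIMP2, a scaffold of the tRNA synthetase complex, did so by 0.71 ± 0.25 (adjusted p = 0.0421), and passed the test in 5 of the 12 fits that left out 1 array, those without any of the 3-day replicates, 60-day replicate 2 or fetal replicate 1. The 6 genes left the class in 3 (CPT1B) to 10 (ECI1) of those 12 fits, and for each the arrays concerned included 60-day replicate 1 and 3-day replicate 1.

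Only ACOT7 and STAMBPL1 among named genes passed the fetal level. ACOT7, an acyl-CoA thioesterase, read 37.6, 24.97 and 58.2 in the fetus, 119.5, 90.2 and 168 at 3 days and 15.1, 12.6 and 19.02 at 60 days, and its fall below the fetus (-0.71 ± 0.20, adjusted p = 0.0154) missed the threshold without fetal replicate 3 (adjusted p = 0.0558). STAMBPL1, a deubiquitinating enzyme, read 48.02, 64.9 and 59.2 in the fetus, 41.7, 40.5 and 40.6 at 3 days and 102, 94.2 and 107 at 60 days (0.64 ± 0.13 against the fetus, adjusted p = 0.00178). It kept its place in the class in 2 of the 12 fits with 1 array left out, those without fetal replicate 1 or 120-day replicate 3. TFRC, the transferrin receptor through which cells take up iron, reversed too but was undetermined. It read 36.9, 41.05 and 44.4 in the fetus, 715, 578 and 379 at 3 days and 140.4, 22.4 and 47.7 at 60 days. At 60 days replicates 1 and 3 lay above all fetal arrays and replicate 2 below them, the interval ran from -0.72 to 1.41, and the difference turned to -0.18 without 60-day replicate 1. ACOT6, FAM69A, GLRX and NME1, named here after their values were seen, were undetermined as well.

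**Figure D5:**
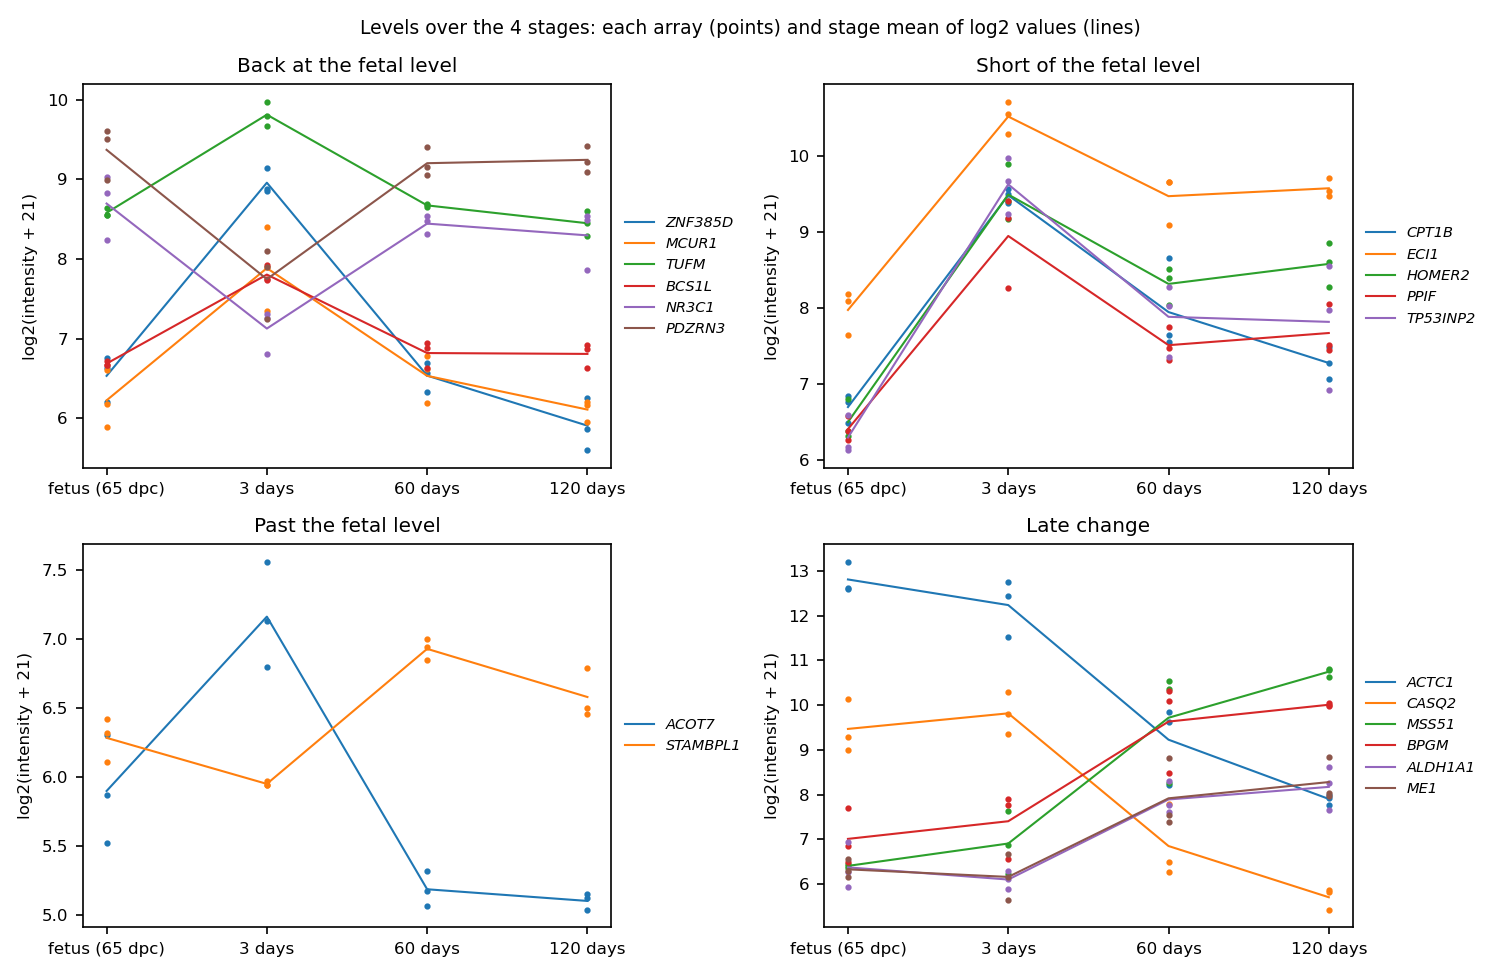
Level of named genes, as log2(intensity + 21), in the fetus (65 days post coitus, dpc) and at 3, 60 and 120 days after birth. Points are arrays and lines join stage means, with genes back at, short of and past the fetal level at 60 days, and late genes. Late genes were called at 60 days against both the fetus and 3 days, but not at 3 days against the fetus.

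A later change was the reverse case, in which a probe set was called at 60 days against both the fetus and 3 days in one direction but not at 3 days against the fetus. No interval limit was set at 3 days, so such a probe set may have moved in part by then. There were 95 such probe sets, 73 higher and 22 lower, and 30 genes. ACTC1 was one, with 6910, 5540 and 2901 at 3 days and 198, 224 and 235 at 120 days. Its values on 3-day replicates 2 and 3 lay below every fetal array. The change from the fetus to 3 days was -0.57, with a 95% interval from -1.45 to 0.31 that reached beyond 2-fold. CASQ2 read 1232, 874 and 634 at 3 days and 37.1, 35.98 and 21.8 at 120 days, and CAMK2G, in the opposite direction, read 190.5, 227 and 99.3 at 3 days and 633, 596 and 555 at 120 days. These 3 genes stayed in the class in every one of the 12 fits that left out 1 array. MSS51, a protein of the muscle mitochondrion, read 66.5, 63.8 and 61.1 in the fetus, 177, 95.8 and 53.6 at 3 days and 1287, 284 and 1478 at 60 days. The value on 60-day replicate 2 was low beside the other two, and MSS51 left the class without 3-day replicate 2, 60-day replicate 1 or 60-day replicate 3. BPGM, ME1, the cytosolic malic enzyme, ALDH1A1, which makes retinoic acid, ADHFE1, an alcohol dehydrogenase, and SLC2A12, a glucose transporter, were the other named late rises, at 2.62, 1.59, 1.52, 1.57 and 1.47 against the fetus. Named late falls besides ACTC1 and CASQ2 were SERPINH1, a collagen chaperone (-1.60 ± 0.32), DNMT3A, a DNA methyltransferase (-0.63 ± 0.13), NSDHL of cholesterol synthesis (-0.50 ± 0.13) and CMSS1 (-0.78 ± 0.22). Beyond the 3 steady genes, the named late genes left the class in 2 to 9 of the 12 fits, always including the one without 3-day replicate 1 or the one without 3-day replicate 2. The count of late probe sets was 33 to 37 without 3-day replicate 1, 3-day replicate 2 or 60-day replicate 1, and 63 and 59 without 120-day replicates 1 and 2.

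No probe set differed between 120 and 60 days by limma at an adjusted p under 0.05, while 1021 (6.32%) did so at an unadjusted p under 0.05. Between 60 days and the fetus, 7960 probe sets (49.2%) were not called and had a 95% interval within 2-fold, so that a larger difference was not seen at this precision. A further 1891 (11.7%) were not called with an interval that reached beyond 2-fold, and for these neither a difference nor its absence was shown.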

How the data were processed

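RNA was taken from whole muscle with Trizol, and Affymetrix porcine arrays received biotinylated cRNA, with each sample on an array of its own, per the labels' protocols. The authors deposited linear intensities, with a value for every probe set on every array, and GCOS 1.4 is named in the submitters' processing notes. Neither the summary method nor background correction nor scaling target is named, each being not given in the sources used here. Because medians agreed closely between arrays, no normalization was added. Detection calls were set aside.

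Among 24123 probe sets, 124 were controls and were left out of the tests. Tests ran on log2(value + 21), the constant being the 25th percentile of the table. A probe set was kept if it passed the 40th percentile of an array on 3 or more arrays, as 16166 did. The platform annotation dates from 2016. It named a single gene for 10069 probe sets and several for 198, and the 13732 it does not list are unnamed here. Entrez identifiers led 9961 to the RefSeq genes of assembly Sscrofa11.1, and 0 symbols changed. Each of the 5765 genes was represented by its brightest kept probe set over the 12 arrays.

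One limma model was fitted to the 12 arrays, with a mean for each stage and a trend in the variance (residual degrees of freedom 8, prior 4.26). P-values were two-sided and adjusted by Benjamini-Hochberg over 16166 probe sets. Errors are the SE of that model for log2 changes and the SD over 3 arrays for means. The fit was also run on simulated data, and no result given here rests on that run. Members and the 30 gene lists were chosen with earlier results of these data known. They name 889 genes. A symbol was found for 617, and 592 remained after the filter.

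Named genes were the 15 largest called rises and falls with separate arrays and a higher stage mean of at least 92.6, the median intensity, up to 4 called members per list by size, members called against their list, a set of fixed genes, and the genes with the largest 3-day change that were back at (8 each way), short of or past (6 each way) the fetal level or that changed late (6 each way). Symbols that are locus or clone names were skipped. Alternatives were other pseudocounts, filters, scalings, variance models, thresholds, the replicate block, 1 probe set per gene and leaving out arrays. Deviations of same-numbered arrays of both stages correlated at r = -0.303, -0.424 and 0.143, and those of differently numbered arrays at -0.408 to 0.646. With 3 arrays per stage, these values cannot decide whether the numbers pair the samples. The fits used limma 3.58.1 and data.table version 1.17.8 under R 4.3.3, and the figures used matplotlib 3.10.9 with pandas 2.3.3 and NumPy 2.4.6 under Python 3.11.15.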

Additional observations from a re-analysis of the deposited data

How the results depend on the processing

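Of 151 named genes called between 60 days and the fetus, 114 kept an adjusted p under 0.05 in all alternative fits that included them. In every fit that left out 1 array, 126 kept it. A threshold of 0.01 was applied to the probe-set counts only. CMSS1, ELOVL6, COMP and RSAD2, all among the 114, had adjusted p above it by limma (0.0153, 0.0112, 0.0106 and 0.0101). The call was lost by 22 when only the 6 compared arrays were fitted, 17 under the hybridization-control centring and 8 with the replicate block. Those 17, all rises, were AIMP2, AURKB, CKM, FGF2, IFIT2, IRS1, MX2, SDF2L1, SP7, SRP14, SRP9, STAMBPL1, TEAD1, TEK, TIMP3, TNNT1 and TPM1 under that centring. The fit of only the 6 compared arrays called 2124 probe sets higher and 2457 lower. Without both 60-day replicate 1 and fetal replicate 2, 134 named genes kept the call. With 1 array left out, the calls between 60 days and the fetus ranged from 5226 to 6465, with 2290 to 3109 higher, 2786 to 3356 lower and 2403 to 2848 of at least 2-fold, 3 days against the fetus gave 5394 to 7194, 60 against 3 days 75 to 297, probe sets back at the fetal level 20 to 78, late ones 33 to 116 and stable ones 7613 to 8480. The replicate block gave 161 calls between 60 and 3 days and 39 probe sets back at the fetal level. It moved none of the other probe-set counts in the preceding sentence by over 1.5 times. Some gene-list counts moved further, with lower ribosomal protein genes going from 4 to 1 and higher immune genes from 2 to 1. Whether the labels' numbers pair the arrays was not settled. Array weights gave 926 calls between 60 and 3 days, 267 back and 265 late; fitting only the arrays compared gave 76, 16 and 32; leaving out both arrays that lay apart gave 111, 22 and 52. With 1 probe set per gene there were 2154 calls, 1117 higher, 1037 lower and 980 of at least 2-fold, 2361 at 3 days, 81 between 60 and 3 days, 22 back, 28 late and 2696 stable. An adjusted p under 0.01 left 3867 calls, 1644 of them higher. The stable count was 14295 without a filter and 4952 with a filter at the 60th percentile, as more probe sets were tested without a filter and fewer with the stricter one, and an interval limit of 1.5-fold left 32 back. Centring on the hybridization controls gave 1003 higher and 6226 lower, and turned the sign of BCS1L (-0.26), IGF1 (-0.0058), ITGAM (-0.025), MCUR1 (-0.085), METTL1 (-0.14), MRPS12 (-0.13), RBL2 (-0.20), TFRC (-0.048), TUFM (-0.30) and ZNF385D (-0.39). Among these IGF1 and ITGAM had been called. Array weights turned NR3C1 (0.039), PDZRN3 (0.0073) and ZNF385D (-0.020). With 1 array left out, TFRC ranged from -0.18 to 0.77 and ZNF385D from -0.16 to 0.12. TFRC turned to -0.18 without 60-day replicate 1 and to -0.17 without both arrays, and ZNF385D to -0.016 and -0.18, and to -0.16 without fetal replicate 2 and -0.078 without 60-day replicate 3. Causes were not tested. The number of arrays limits what could be called, and dim probe sets, below the added constant of 21, have compressed changes.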
